A study of Mus musculus with 6 samples.

Results

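The genes described here make and break down coenzyme A, the carrier on which the liver activates fatty acids, acetyl groups and other acyl groups. They are 10 of the 55471 genes in the count tables, chosen by name: the pantothenate kinases Pank1, Pank2 and Pank3, the later synthesis enzymes Ppcs, Ppcdc and Coasy, the pantetheinases Vnn1 and Vnn3, and the peroxisomal coenzyme A hydrolases Nudt7 and Nudt19. All 10 were found by identifier and passed the filter on low counts, the lowest with 242 counts in a library, among 13812 genes tested. RNA from whole liver was sequenced in 6 male wild-type C57BL/6J mice, 3 fasted for 16 h and 3 fasted for 4 h, 1 library per mouse. No group was fed, so the 4 h fast is the baseline, and the labels used here state no age. The members were chosen with the difference between these fasts in view, so their changes are given as a description, without p-values.

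Coenzyme A is built from pantothenate, vitamin B5, cysteine and ATP. Pantothenate kinase catalyses the first and rate-controlling step and is inhibited by coenzyme A and its thioesters, so the pool size feeds back on its own synthesis. Fasting raises the coenzyme A content of rodent liver, where large amounts of fatty acid must be activated for oxidation. Breakdown runs through Nudix hydrolases, which split coenzyme A inside organelles, and through vanins, which act outside the cell on pantetheine and return pantothenate.

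Libraries held 16991034 to 25016855 gene counts after 16 h and 15173653 to 26572532 after 4 h. The 6 hepatocyte markers were counted in each library and summed to 79900 to 92020 CPM (read counts scaled to a common library size) after 16 h and 85660 to 92700 CPM after 4 h. Most of that sum was Alb, whose ranges overlapped, as did those of Apoa1 and Ass1. Ttr was lower after 16 h, at 3067 to 3501 CPM against 5546 to 6972 CPM after 4 h. Cps1 (5142 to 6143 CPM against 2515 to 4119 CPM) and Hnf4a (861 to 1185 CPM against 590 to 639 CPM) were higher after 16 h. The library of 4 h replicate 3 stood apart: its 7 lung epithelium markers summed to 186 CPM, against at most 8.44 CPM in the 16 h libraries and 6.29 CPM in the other 4 h libraries, and its 10 neutrophil markers to 17.7 CPM, against at most 5.54 CPM in the 16 h libraries and 2.65 CPM in the other 4 h libraries. None of the markers of either list was at 0 in all libraries. Each lung marker was highest in 4 h replicate 3, as was each neutrophil marker other than Ngp, Camp and Ltf. Its 6 Kupffer cell markers summed to 144 CPM, against 76.7 to 91.0 CPM after 16 h and at most 107 CPM in the other 4 h libraries. Summed markers of endothelium (4 genes) ranged from 72.0 to 83.5 CPM after 16 h and 62.2 to 76.4 CPM after 4 h, those of stellate cells (4 genes) from 123 to 181 CPM after 16 h and 128 to 178 CPM after 4 h, and those of bile duct (4 genes) from 12.7 to 16.3 CPM after 16 h and 12.0 to 18.9 CPM after 4 h. Adipocyte markers (4 genes) were at 0.301 to 0.667 CPM after 16 h and 1.03 to 5.56 CPM after 4 h. That difference lay in Cfd, at 0.578, 0.241 and 0.494 CPM after 16 h and 5.37, 0.902 and 2.04 CPM after 4 h. Adipoq, Plin1 and Retn were each at 0 to 0.13 CPM in every library. The part of these other cell types in the results was not tested, and member values without 4 h replicate 3 are given beside the results they touch.

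Of the 6 synthesis genes none was called different between the fasts, and of the 4 genes of breakdown 3 were, where 18.7% of all tested genes were called in either direction. The called genes of breakdown went in opposite directions. Nudt7 was 5.72-fold lower after 16 h, while Vnn1 was 2.80-fold and Vnn3 1.43-fold higher. By the edgeR quasi-likelihood test across all genes, 2 of the 10 members were called higher, where 9.18% of tested genes were, and 1 was called lower, where 9.51% were. The groups did not overlap for 4 members, Pank2, Vnn1, Vnn3 and Nudt7, and for 39.4% of tested genes. As the members were picked with this comparison known, nothing is read from those shares or from the split of calls between synthesis and breakdown. The median log2 fold change was 0.096 over the members and -0.028 over all tested genes. In whole liver, fewer cells of a type and less RNA per cell cannot be told apart.

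**Figure D1:**
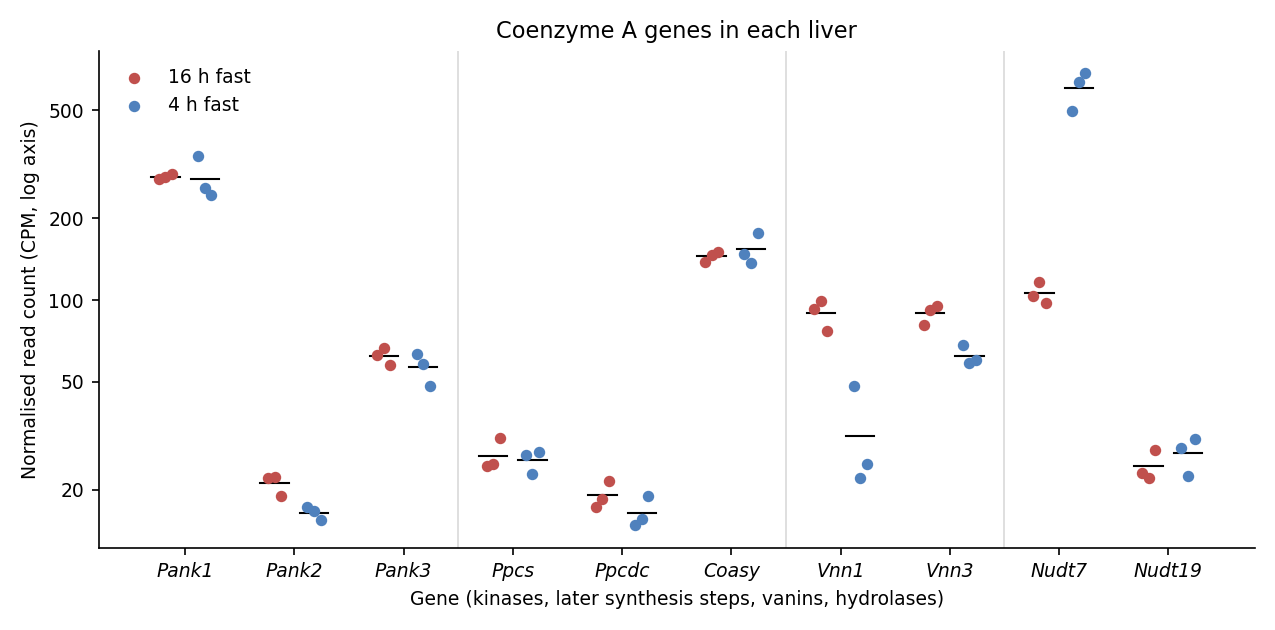
Normalised read counts (CPM, log axis) of the 10 coenzyme A genes in each liver, with the 16 h fast in red left of the 4 h fast in blue and black lines at the means of 3 livers. Nudt7 lies at 97.6 to 117 CPM after 16 h against 496 to 685 CPM after 4 h, Vnn1 and Vnn3 lie above their 4 h values, and the other genes except Pank2 overlap.

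Pank1 encodes the kinase that dominates in liver, in long and short forms that the gene counts do not separate. It had 278, 284.5 and 292 CPM in 16 h replicates 1, 2 and 3, against 338.5, 258 and 243 CPM in 4 h replicates 1, 2 and 3. The 16 h values lay inside the range of the 4 h values, whose replicate 1 was the highest of all 6 livers. The log2 fold change was 0.025 ± 0.13 (SE, n = 3 each), with a 95% interval from -0.26 to 0.31, so a doubling lies outside it. Without 4 h replicate 1 the value was 0.20, and without 4 h replicate 3 it was -0.056.

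Pank3, the cytosolic kinase found in most tissues, had 62.7, 66.3 and 57.5 CPM after 16 h and 63.1, 58.3 and 48.3 CPM after 4 h. The groups overlapped, with a log2 fold change of 0.14 ± 0.12 (SE, n = 3 each), and 0.044 without 4 h replicate 3. Pank2, whose human protein sits in mitochondria and is mutated in a neurodegenerative disease with brain iron, was the lowest kinase in CPM, at 22.1, 22.2 and 19.0 CPM after 16 h and 17.2, 16.6 and 15.5 CPM after 4 h. Each 16 h liver lay above each 4 h liver (0.36 ± 0.12, SE, n = 3 each; 0.33 without 4 h replicate 3), yet Pank2 was not called. Of the exon bases of Pank2, 22.9% lie under other genes, among them Rnf24 on the opposite strand, and reads there may be unassigned. Per kilobase of exon, Pank1 made up 72.2%, 71.8% and 75.2% of the summed kinase level in the 16 h livers and 77.3%, 73.5% and 75.2% in the 4 h livers. That share depends on the length used: with the principal transcript of each gene, an alternative chosen after seeing the data, it was 87.9% to 89.6% in 16 h livers and 88.8% to 90.7% in 4 h livers.

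The kinase genes also share a feature of sequence. Each carries in an intron, on its own strand, a hairpin of the miR-103/107 family: Mir107 in Pank1 (chr19:34820687-34820773), Mir103-2 in Pank2 (chr2:131288052-131288137) and Mir103-1 in Pank3 (chr11:35782396-35782481), all in GRCm38. The mature 3p sequences, from RefSeq on GRCm38.p6, are shown because the hosts differ in level while their products share a seed, marked in capitals (bases 2 to 8).
mmu-miR-107-3p (host Pank1): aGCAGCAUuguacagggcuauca
mmu-miR-103-3p (hosts Pank2 and Pank3): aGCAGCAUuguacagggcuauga
Counted from 1 at the 5′ end, the only substitution from miR-103-3p to miR-107-3p is G22C, outside the seed. Over all 6 libraries the rows of Mir107, Mir103-2 and Mir103-1 held 3, 1 and 0 counts. Such gene counts do not measure the mature miRNAs, so no level is given for them.

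None of the 3 later steps of synthesis was called different between the fasts. Ppcs, which joins cysteine to phosphopantothenate, had 24.4, 24.8 and 30.9 CPM after 16 h and 26.9, 22.75 and 27.5 CPM after 4 h. The groups overlapped (0.055 ± 0.13, SE, n = 3 each; 0.12 without 4 h replicate 3). Ppcdc, which removes the carboxyl group of that cysteine, had 17.2, 18.5 and 21.5 CPM after 16 h and 14.8, 15.6 and 19.0 CPM after 4 h. In each group replicate 3 was the highest, and the groups overlapped (0.21 ± 0.14, and 0.34 without 4 h replicate 3). Coasy, the bifunctional enzyme of the closing steps, was the most abundant of the 3, at 138.6, 146.0 and 150.4 CPM after 16 h and 147.6, 137 and 177 CPM after 4 h. Its change was -0.086 ± 0.12 (SE, n = 3 each), and 0.037 without 4 h replicate 3, which held its highest value. The 95% intervals ran from -0.23 to 0.34 for Ppcs, from -0.09 to 0.52 for Ppcdc and from -0.34 to 0.17 for Coasy.

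The vanins were higher after the longer fast. They lie next to each other on the plus strand of chromosome 10, Vnn3 at 23851462 to 23869843 and Vnn1 at 23894688 to 23905343 of GRCm38. Vnn1, a membrane-anchored pantetheinase and known target of the fasting receptor PPAR alpha in mouse liver, had 92.4, 99.1 and 76.7 CPM after 16 h, against 48.0, 22.1 and 24.9 CPM after 4 h. No values overlapped, and 4 h replicate 1 stood between the other 4 h livers and the 16 h livers. The log2 fold change was 1.49 ± 0.29 (SE, n = 3 each; 95% interval 0.80 to 2.17). It was 1.34 without 4 h replicate 3, when Vnn1 was no longer called, and 1.95 without 4 h replicate 1. By this change Vnn1 ranked 120 from the highest of 13812 genes.

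Vnn3, its paralogue, had 80.96, 92.1 and 94.8 CPM after 16 h and 68.2, 58.6 and 60.4 CPM after 4 h. The groups did not overlap, and the spread within each was small against the gap (0.52 ± 0.11, SE, n = 3 each; 0.50 without 4 h replicate 3). The difference of log2 CPM between Vnn1 and Vnn3 averaged -0.003 ± 0.27 in 16 h livers and -1.06 ± 0.49 in 4 h livers (SD, n = 3 each). Per kilobase, Vnn1 made up 37.8% to 46.1% of the summed vanin level after 16 h and 22.03% to 34.5% after 4 h. The handling of reads common to both paralogues is unknown, which leaves the split between them uncertain to that extent.

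The upstream sequence of Vnn3 is printed as that of the called higher member with a RefSeq entry, from the plus strand of GRCm38.p6 at chr10:23851212-23851461, ending just before the start. Capitals mark the stretch closest to DR1, the element that PPAR-RXR pairs bind, which is AGGTCA followed after 1 free base by AGGTCA again, searched on both strands.
Vnn3 upstream: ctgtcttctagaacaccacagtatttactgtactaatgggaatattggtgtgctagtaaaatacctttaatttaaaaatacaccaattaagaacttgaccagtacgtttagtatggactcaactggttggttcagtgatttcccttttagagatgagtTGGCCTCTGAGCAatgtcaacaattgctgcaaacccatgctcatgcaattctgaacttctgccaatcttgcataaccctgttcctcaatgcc
That stretch, on the minus strand with its outer end 92 bases before the start, differs from DR1 at 3 bases, and 20.2% of 20595 mouse promoters of the same length (250 bases) hold a match with 3 or fewer differences. Of the 8 members with an entry (Pank1, Pank2, Pank3, Ppcs, Ppcdc, Vnn3, Nudt7 and Nudt19), Nudt19 also had a best match with 3 differences and the others had 4 or 5. An exact AGGTCA, the unit of which DR1 holds a pair, was present once, in Ppcs, and in 12.9% of all promoters. These letter matches are a description of this window only.

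Nudt7 encodes the main coenzyme A hydrolase of liver peroxisomes. It had 103, 117 and 97.6 CPM in 16 h replicates 1, 2 and 3, against 496, 637 and 685 CPM in 4 h replicates 1, 2 and 3. The highest 16 h liver lay far below the lowest 4 h liver. The log2 fold change was -2.52 ± 0.14 (SE, n = 3 each; 95% interval -2.83 to -2.20), the 42nd lowest of 13812 tested genes. Leaving out single livers gave -2.62 to -2.41, and the value without 4 h replicate 3 was -2.41. The gene lies on the plus strand of chromosome 8 at 114133557 to 114154739, with no exon base under another gene. Its upstream sequence (RefSeq, GRCm38.p6, plus strand, chr8:114133324-114133556) is shown up to the annotated start of the gene, as that of the member with the largest change. The 250-base window before its RefSeq start held no AGGTCA on either strand and nothing closer to DR1 than 5 differences, so no bases are in capitals.
Nudt7 upstream: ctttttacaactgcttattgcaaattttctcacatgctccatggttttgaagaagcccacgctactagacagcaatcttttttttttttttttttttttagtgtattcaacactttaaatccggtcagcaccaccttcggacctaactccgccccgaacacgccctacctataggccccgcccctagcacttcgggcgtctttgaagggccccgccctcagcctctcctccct

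Nudt19, a related peroxisomal hydrolase that is abundant in mouse kidney, had 23.0, 22.1 and 28.0 CPM after 16 h and 28.5, 22.4 and 30.8 CPM after 4 h. The groups overlapped, and its change was -0.16 ± 0.14 (SE, n = 3 each; 95% interval -0.47 to 0.15), and -0.058 without 4 h replicate 3. An antisense gene, B230322F03Rik, covers 35% of its exon bases, so its level is uncertain.

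Setting the kinases against the hydrolases gave a different picture for each hydrolase. The mean log2 CPM of the 3 kinases minus that of Nudt7 was -0.51, -0.64 and -0.51 in 16 h replicates 1, 2 and 3, against -2.79, -3.33 and -3.59 in 4 h replicates 1, 2 and 3. Each 16 h liver was higher, and the group means differed by 2.69. Against Nudt19 the same quantity was 1.66, 1.76 and 1.29 after 16 h and 1.33, 1.49 and 0.88 after 4 h. These groups overlapped, with a difference of means of 0.34. The same contrast of fitted log2 changes was 0.16 without 4 h replicate 3. With both hydrolases averaged, the quantity per liver was 0.51 ± 0.10 after 16 h and -1.003 ± 0.32 after 4 h (SD, n = 3 each). The means differed by 1.51, to which Nudt7 gave the larger share. As a contrast of fitted log2 changes it was 1.51 with all libraries and 1.34 without 4 h replicate 3. Nudt7 minus Nudt19 itself averaged 2.12 ± 0.30 after 16 h and 4.47 ± 0.35 after 4 h.

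**Figure D2:**
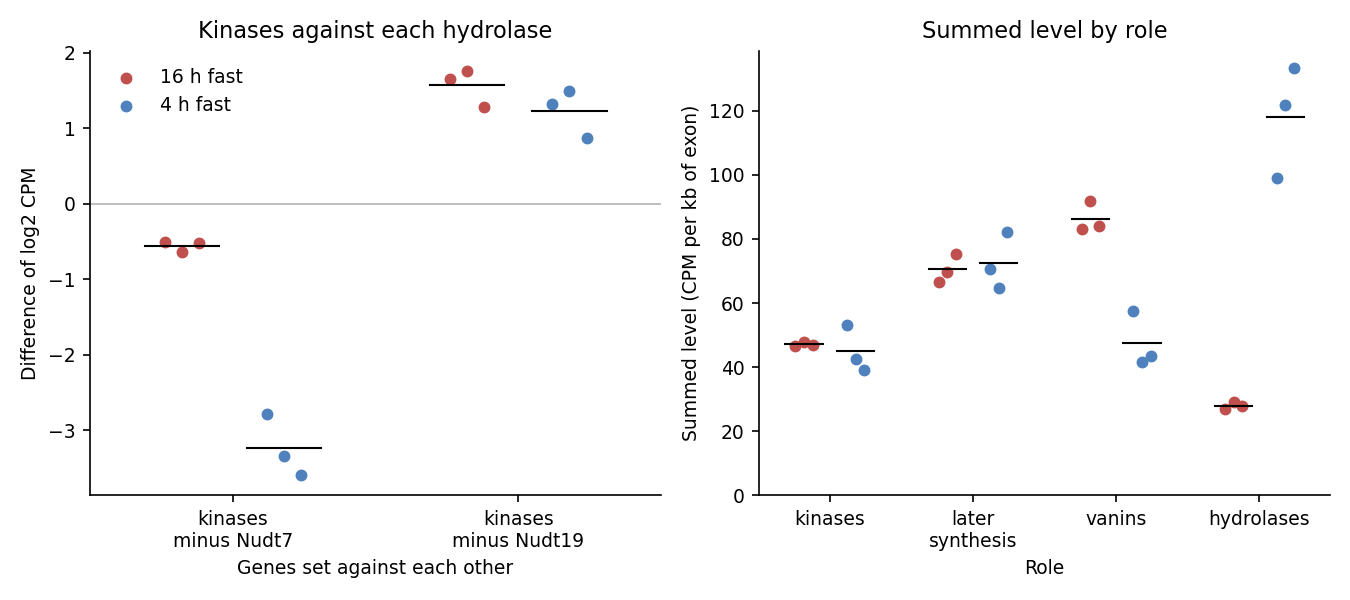
Left, mean log2 CPM of Pank1, Pank2 and Pank3 minus log2 CPM of Nudt7 or of Nudt19 in each liver, 16 h fast in red and 4 h fast in blue, with black lines at the means. Right, in the same colours, the level in CPM per kilobase of exon summed over the genes of each role, where hydrolases lie at 28.0 after 16 h and 118 after 4 h and kinases at 47.2 after 16 h and 44.9 after 4 h.

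Levels between genes were compared per kilobase of exon. Summed over their genes, kinases stood at 47.2 ± 0.65 CPM per kilobase after 16 h and 44.9 ± 7.2 after 4 h, and later synthesis steps at 70.5 ± 4.5 after 16 h and 72.5 ± 8.8 after 4 h (SD, n = 3 each). Vanins stood at 86.3 ± 4.9 CPM per kilobase after 16 h and 47.6 ± 8.7 after 4 h, and hydrolases at 27.95 ± 1.02 after 16 h and 118 ± 17.5 after 4 h. The ratio of the summed kinase level to the summed hydrolase level was 1.69 ± 0.039 in 16 h livers and 0.39 ± 0.13 in 4 h livers (SD, n = 3 each). Of all livers, 4 h replicate 3 had the lowest kinase sum (39.1) and the highest hydrolase sum (133). With principal transcript lengths the ratio was 2.88 ± 0.11 in 16 h livers and 0.64 ± 0.22 in 4 h livers. The summed kinase level was then 117 ± 1.8 CPM per kilobase after 16 h and 113 ± 19.6 after 4 h, above later synthesis steps (86.2 after 16 h and 88.3 after 4 h) and vanins (86.3 after 16 h and 47.6 after 4 h), so the order of roles by level depends on the length used.

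In 16 h livers the order of levels per kilobase was Coasy (50.6), Vnn3 (49.3), Vnn1 (37.0), Pank1 (34.5), Nudt7 (18.9), Ppcs (16.65), Nudt19 (9.09), Pank3 (8.43), Pank2 (4.30) and Ppcdc (3.29). Neighbours whose ranges overlapped were Coasy and Vnn3, Vnn1 and Pank1, Nudt7 and Ppcs, and Nudt19 and Pank3. In 4 h livers it was Nudt7 (107.8), Coasy (53.7), Vnn3 (34.5), Pank1 (33.9), Ppcs (16.0), Vnn1 (13.1), Nudt19 (10.2), Pank3 (7.66), Pank2 (3.35) and Ppcdc (2.84). There Vnn3 overlapped Pank1, Ppcs overlapped Vnn1, Vnn1 overlapped Nudt19, Nudt19 overlapped Pank3, and Pank2 overlapped Ppcdc. Nudt7 was thus the fifth of the 10 in 16 h livers and the first in 4 h livers. With the length of the principal transcript in place of all exons, Pank1 moved to 103 CPM per kilobase after 16 h and 101.5 after 4 h, the first place after 16 h and the second after 4 h, as that transcript spans 2760 of the 8267 exon bases of Pank1.

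Genes around the pathway were read from a list of 12 that supply pantothenate, move coenzyme A between compartments, attach its arm to proteins or bear that arm, with the family mates Pank4 and Nudt8. Of the 10 that were tested, none was called higher, 3 lower and 7 neither, where 9.18% of all tested genes were higher and 9.51% lower, with a median log2 fold change of -0.21 against -0.028 over all tested genes. At an unadjusted p under 0.05, edgeR placed 1 higher and 4 lower, and DESeq2 called 1 higher and 2 lower after adjustment. Over all tested genes DESeq2 called 1372 higher and 1344 lower, and no share of all genes at the unadjusted cutoff is given. This list was chosen with earlier results of these data known, so nothing is read from its counts. Slc5a6, the sodium-dependent carrier of pantothenate and biotin, fell to 7.65, 6.57 and 8.44 CPM after 16 h, against 14.7, 10.9 and 13 CPM after 4 h. The groups did not overlap (-0.77 ± 0.16, edgeR adjusted p = 0.00634, from 2.08e-04 to 0.0389 over the alternatives). Slc25a17, a peroxisomal carrier of coenzyme A and other nucleotide cofactors, fell to 39.55, 37.9 and 43.1 CPM after 16 h, against 57.5, 52.6 and 53.9 CPM after 4 h (-0.44 ± 0.10, edgeR adjusted p = 0.0117).

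Slc25a17 was no longer called when 16 h replicate 1, 16 h replicate 2 or 4 h replicate 1 was left out, at edgeR adjusted p of 0.0577, 0.0709 and 0.05005. Over the alternatives its adjusted p ranged from 0.00431 to 0.0709. Ndufab1, the mitochondrial acyl carrier protein that bears a phosphopantetheine arm, fell to 26.9, 27.1 and 27.3 CPM after 16 h, against 30.5, 35.8 and 39.1 CPM after 4 h (-0.37 ± 0.12, edgeR adjusted p = 0.0436). Its call was lost without 4 h replicate 2 or 3 or any one 16 h library, without the filter and with DESeq2. Over all alternatives, those that kept the call among them, its adjusted p (edgeR or DESeq2) ranged from 0.0297 to 0.134. The mitochondrial coenzyme A carrier Slc25a42 was at 169, 153 and 143 CPM after 16 h and 171, 151 and 152 CPM after 4 h, and was named after its values were seen.

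Pank4, a family mate that in mammals acts as a phosphatase rather than a kinase, had 12.95, 13.7 and 14.2 CPM after 16 h and 15.9, 17.1 and 14.4 CPM after 4 h (-0.21 ± 0.12, edgeR adjusted p = 0.255, from 0.122 to 0.559 over the alternatives). Nudt8, the mitochondrial coenzyme A hydrolase on chromosome 19 at 4000580 to 4002103, had 0 of 125286659 counts, which allows up to 0.024 CPM by counting error alone. Of its exon bases 88.5% overlap other genes, among them Gm49405 on the same strand, so reads of Nudt8 may not have been assigned to it. The row of Gm49405 held 17, 9 and 26 counts in 16 h libraries and 56, 32 and 27 counts in 4 h libraries.

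Vanins release cysteamine, a source of hypotaurine and taurine, and cysteine is a building block of coenzyme A. Among 9 genes of cysteine, cysteamine and taurine handling 8 were tested, of which 4 rose, none fell and 4 were not called, where 9.18% of all tested genes were higher and 9.51% lower. The median log2 fold change was 0.38 against -0.028 over all tested genes. At an unadjusted p under 0.05, both edgeR and DESeq2 placed 5 higher and 0 lower, a cutoff for which no share of all genes is given. After adjustment DESeq2 called 4 higher and 0 lower, against 1372 higher and 1344 lower over all tested genes. Cth, which makes cysteine from cystathionine, rose to 821, 593 and 802 CPM after 16 h, against 290, 443 and 323 CPM after 4 h (1.07 ± 0.18, edgeR adjusted p = 0.0021). Fmo1, a flavin monooxygenase that can oxidise hypotaurine to taurine, rose to 257, 242 and 261 CPM after 16 h, against 148, 149 and 146 CPM after 4 h (0.78 ± 0.10, edgeR adjusted p = 4.14e-04).

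Cdo1, the cysteine dioxygenase, rose to 1979, 2400.0 and 2401 CPM after 16 h, against 1462, 1531 and 1364 CPM after 4 h (0.64 ± 0.12, edgeR adjusted p = 0.00389). Baat, which joins bile acids to taurine from their coenzyme A thioesters, rose to 325.5, 328 and 346 CPM after 16 h, against 248, 242 and 232 CPM after 4 h (0.47 ± 0.10, edgeR adjusted p = 0.00857). These 4 calls held in each of 11 alternatives, Baat with an adjusted p of up to 0.0498. The alternatives refit the same libraries and are no independent support. The list was chosen with earlier results of these data known, so nothing is read from its share. Gadl1 had 0 counts in all libraries and was not tested.

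**Figure D3:**
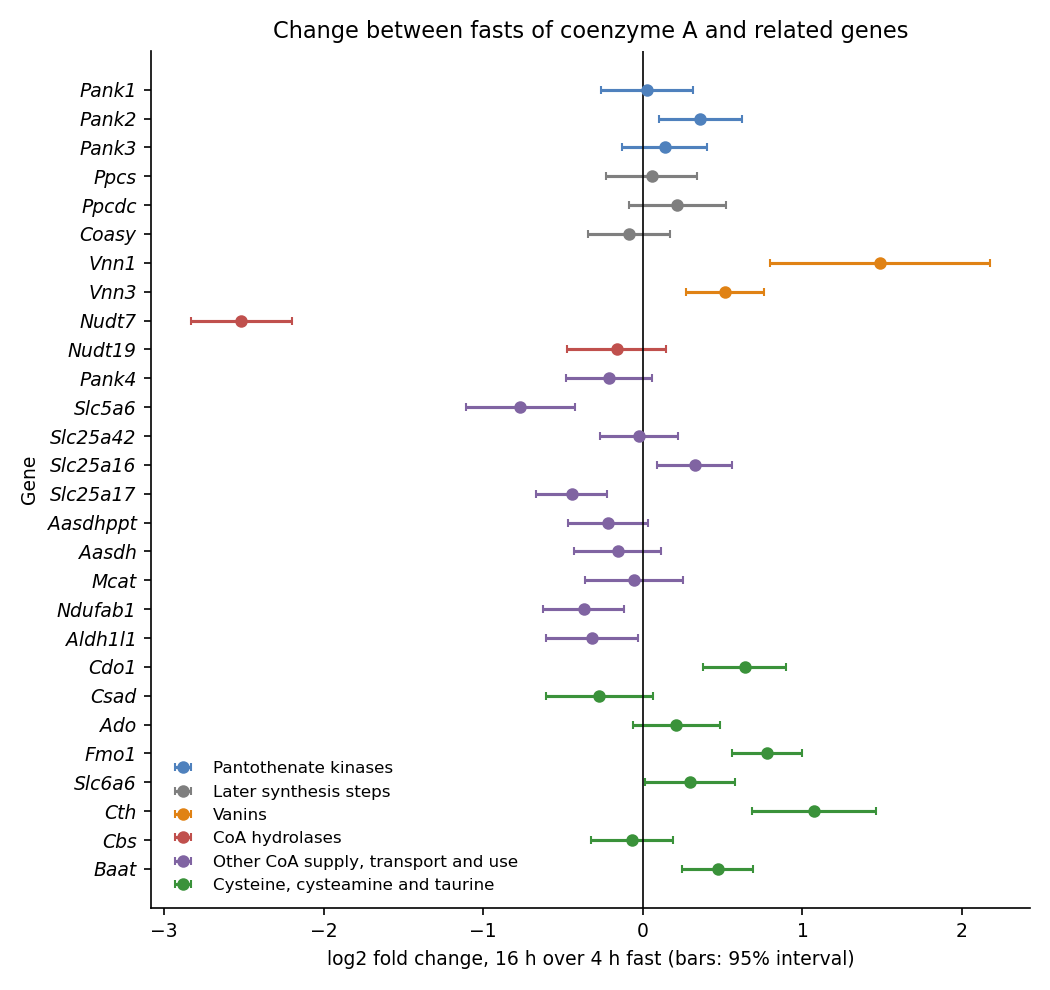
Log2 fold change, 16 h over 4 h fast, of the 10 coenzyme A genes and of the tested genes of the lists on coenzyme A supply, transport and use and on cysteine, cysteamine and taurine, with bars for the 95% interval from 3 livers per group. Nudt7 lies furthest left at -2.52 and Vnn1 furthest right at 1.49, while the intervals of Pank1, Pank3, Ppcs, Ppcdc, Coasy and Nudt19 cross 0.

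PPAR alpha is the nuclear receptor that fatty acids activate in the fasted liver, and Vnn1 is among its targets. Of 12 genes that encode it, its partner or classical targets, 8 rose, none fell and 4 were not called, where 9.18% of all tested genes were higher and 9.51% lower. The median log2 fold change was 0.92 against -0.028 over all tested genes. By edgeR 11 were higher and 0 lower at an unadjusted p under 0.05, for which no share of all genes is given. After adjustment DESeq2 called 10 higher and 0 lower, against 1372 higher and 1344 lower over all tested genes. Like the other lists, this one was chosen with earlier results of these data known. It is given as context, and nothing is read from its share. Ppara itself was at 124.5, 119 and 111 CPM after 16 h and 78.9, 66.2 and 55.3 CPM after 4 h (0.82 ± 0.13, edgeR adjusted p = 0.00164). The thioesterase Acot1, which frees coenzyme A from fatty acyl-CoA in the cytosol, rose to 239, 182 and 217 CPM after 16 h, against 40.6, 25.7 and 27.1 CPM after 4 h (2.76 ± 0.18, edgeR adjusted p = 1.09e-05). On the log2 scale Ehhadh, of peroxisomal oxidation, rose by 2.97 ± 0.22 (edgeR adjusted p = 2.73e-05) and Acadm, the medium-chain acyl-CoA dehydrogenase, by 0.92 ± 0.11 (edgeR adjusted p = 3.05e-04). In 4 h livers, replicate 1 was the highest for all genes of this list except Pdk4, Rxra and Creb3l3. Among the members, it was the highest for Pank1, Pank2, Pank3, Vnn1 and Vnn3, and not for the others. This order was seen in the values, and its share over all tested genes is not given. A link between the members and this list was not tested.

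The genes whose profiles over the 6 libraries were most like those of single members were found among 7626 others with a mean of at least 10 CPM, by Pearson correlation of log2 CPM. The points share libraries and 2 groups, so these values describe likeness only. For Nudt7 the nearest were Cyp4f14 (r = 0.999), Lss (r = 0.998) and Bphl (r = 0.998). Cyp4f14 was at 103.6, 109.7 and 105.0 CPM after 16 h and 224, 263 and 264 CPM after 4 h. For Vnn1 they were Cnst (r = 0.998), 1110008L16Rik (r = 0.995) and Fam69a (r = 0.992). For Pank1 they were Gpd2 (r = 0.990), Ptpn12 (r = 0.950) and Plcg1 (r = 0.950), and for Nudt19 they were Pex7 (r = 0.987), Plekhh3 (r = 0.984) and Pla2g12b (r = 0.979). Gpd2, the mitochondrial glycerol phosphate dehydrogenase, had 34.5, 34.7 and 36.7 CPM after 16 h and 42.6, 29.8 and 28.1 CPM after 4 h, with the same high 4 h replicate 1 as Pank1.

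**Figure D4:**
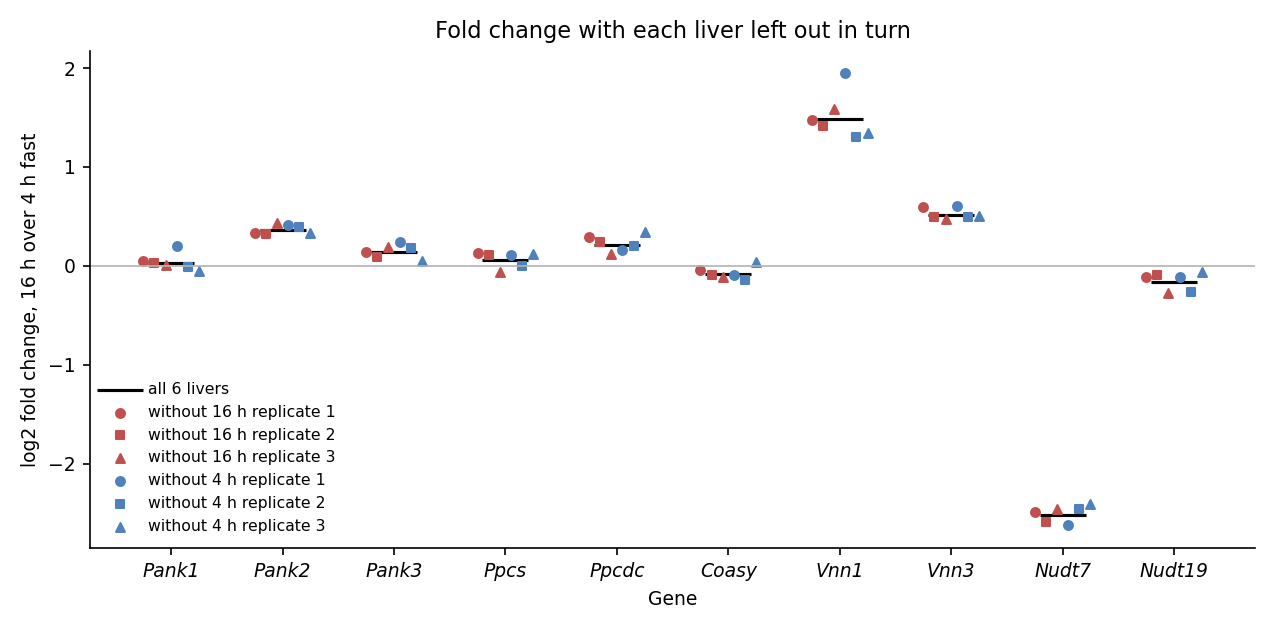
Log2 fold change of each coenzyme A gene, 16 h over 4 h fast, with all 6 livers (black line) and with each liver left out (red for 16 h, blue for 4 h livers). Nudt7 stays between -2.62 and -2.41 and Vnn3 between 0.47 and 0.60, Vnn1 spreads from 1.31 to 1.95, and Pank1, Ppcs and Coasy fall on both sides of 0.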

How the data were processed

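RNA was taken from liver and sequenced by a commercial provider, per the labels' protocols. Per the series' design text and the submitters' processing notes, the authors trimmed adapters and poor bases with Trimmomatic (quality was viewed in FastQC), mapped reads by STAR on GRCm38 (mm10), took gene counts from HTSeq-count and compared groups in DESeq2. Neither tool versions nor the annotation release and strand setting are stated. The deposited values are raw whole-number counts per Ensembl gene. Lines that name no gene stayed out: 6.44% to 7.14% of reads fell outside genes and 5.78% to 6.59% were ambiguous between genes.

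Symbols, positions and exon lengths came from GENCODE M21 (GRCm38), which matched 55230 of 55471 identifiers. Genes passing filterByExpr were scaled with TMM factors and tested with edgeR 4.0.16 in R 4.3.3, by a robust quasi-likelihood fit with fasting time as its only term. The 2-sided p-values were adjusted by the Benjamini-Hochberg method over 13812 genes with a threshold of 0.05, and the procedure was tested on simulated data. SE and 95% intervals are from this fit. CPM use TMM-scaled library sizes, log2 CPM a prior count of 2. A count of 0 was read as at most 3 counts. Intervals and limits cover counting error only where they rest on counts alone. Libraries of a group differed by more than sampling noise (chi-square per degree of freedom 17.3 to 68.5). The design text gives 3 mice per fast, so each library was treated as 1 animal.

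All members were named, and from the lists the called genes, or the 3 with the smallest adjusted p where over 6 were called, with Pank4, Nudt8 and Ppara in any case. Members and lists were chosen with earlier results of these data known. Alternatives were median-of-ratios factors, plain totals, no filter, DESeq2 1.42.0, a replicate block and leaving out each library.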

Additional observations from a re-analysis of the deposited data

How the results depend on the processing

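Among settings that kept all libraries (median-of-ratios factors, plain totals, no filter, DESeq2 and the replicate block), 99 of 100 comparisons with the reported values stayed within 1.5 times for counts or within 1 SD for changes. The exception was DESeq2, which called 1 gene of coenzyme A supply, transport and use higher, Slc25a16, where edgeR called 0. Leaving out single libraries gave 671 to 1594 genes called higher and 696 to 1393 lower, against 1268 and 1313, the highest of both without 4 h replicate 3. Without 16 h replicate 1, 2 or 3 it was 818, 681 or 671 higher and 823, 715 or 696 lower. It gave 0 to 1 higher (1 without 4 h replicate 3) and 1 to 2 lower (1 without 16 h replicate 1 or 2) genes of coenzyme A supply, transport and use, 4 to 5 and 0 of cysteine and taurine handling, and 8 to 10 and 0 of the PPAR alpha list. Log2 changes ranged from 1.31 to 1.95 for Vnn1, 0.47 to 0.60 for Vnn3, -2.62 to -2.41 for Nudt7, -0.27 to -0.058 for Nudt19, -0.056 to 0.20 for Pank1, 0.33 to 0.43 for Pank2, 0.044 to 0.24 for Pank3, -0.061 to 0.13 for Ppcs, 0.12 to 0.34 for Ppcdc and -0.14 to 0.037 for Coasy. Kinases against both hydrolases gave 1.34 to 1.65 and against Nudt19 alone 0.16 to 0.48. Without 4 h replicate 3 Vnn1 was not called, and the cause was not tested.

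The titles number libraries 1 to 3 in each group. Deviations of same-numbered libraries correlated at 0.088, 0.093 and 0.046 across genes, and those of differently numbered libraries at -0.14 to 0.066. The 16 h replicates 1 and 2 correlated best with their own number, and 16 h replicate 3 with 4 h replicate 1. These values do not settle whether the numbers mark pairs, and the main fit did not take them as pairs. With the replicate block, 1352 genes were higher and 1396 lower, Nudt7 changed by -2.51 and Vnn1 by 1.56. With 3 mice per group, the missing calls of Pank2, Ppcdc and Nudt19 do not show that their levels were equal.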
